A study of Arabidopsis thaliana with 6 samples.

Results

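The genes described here encode 10 enzymes of *Arabidopsis thaliana* that make, modify or break down jasmonates, the active form among them. They form a list of gene identifiers drawn up by function, with earlier results of these data known, and all 10 identifiers are present among the 20754 genes of the deposited table. Transcript levels were measured by QuantSeq, which sequences polyadenylated transcripts from the 3′ side with 1 fragment for each, and levels of different genes can therefore be set side by side without a correction for length. The mutant plants were *fer* (*fer-4* in the study's text, a T-DNA insertion allele of the receptor kinase gene FERONIA, in the Columbia-0 background) and the comparison plants were WT (Columbia-0), with 3 libraries of rosette leaves for each genotype and no treatment of either. According to the labels, seedlings spent 10 days on plates in constant light and 21 days on soil at 22°C in days with 8 h of light and 16 h of dark, and were called 4 weeks old, whereas the study's text gives long days and a slightly higher age. The labels call the libraries biological replicates, and the study's methods state pooled rosettes, more of *fer* than of WT, for its protein samples but give no number of plants for these libraries. The columns of the table name the genotype but not the replicate, so libraries 1, 2 and 3 are named by column order and pair nothing across genotypes.

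Jasmonic acid becomes active when it is joined to isoleucine by JAR1, and the conjugate, JA-Ile, brings the F-box protein COI1 and the JAZ repressors together so that the repressors are degraded. Several routes take the hormone away again. The jasmonate oxidases JOX1 to JOX4 hydroxylate free jasmonic acid to a form that does not signal, and the sulfotransferase ST2A adds a sulfate to that product. Cytochromes P450 of the CYP94 family oxidize JA-Ile itself, CYP94B1 and CYP94B3 to the hydroxy form and CYP94C1 onward to the carboxy form. The amidohydrolases IAR3 and ILL6 cut the bond between the jasmonate and isoleucine. Many of these genes are themselves induced by jasmonate after wounding.

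Transcript levels of 7 of the 10 genes were increased in *fer* and 0 were decreased, at an adjusted p under 0.05 in limma over all 20754 genes, where 10.0% of all genes were increased and 4.52% decreased. That excess of increases over all genes, 2083 against 938, depended on the scaling, and scaling by median of ratios gave 1510 against 1459 and quantile normalization 1353 against 1452, with 6 and 5 of the 10 genes increased. The increased genes were JOX2, JOX3, JOX4, ST2A, CYP94C1, IAR3 and ILL6. JAR1, CYP94B1 and CYP94B3 were not called, and at an unadjusted p under 0.05 in limma 0 of the 10 were decreased as well. The median log2 fold change (*fer* over WT) was 1.56 for the 10 genes and 0.10 for all genes tested. In 6 of the 10 genes all *fer* libraries lay above all WT libraries, against 20.8% of all genes. With an adjusted p under 0.01, 5 genes were increased (5.73% of all genes), and limma without the trend of variance on mean also called 5 (4.38% of all genes). These 5 were JOX2, JOX3, ST2A, IAR3 and ILL6 in both cases.

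The 6 libraries each held between 4523902 and 4526129 normalized reads after the authors' scaling. Libraries of 1 genotype correlated across genes at a Pearson's r of 0.965 to 0.970, and libraries of different genotypes at 0.941 to 0.949. FER itself (AT3G51550) had 5.95, 6.63 and 10.3 normalized reads in *fer* libraries and 264.6, 265.5 and 286.4 in WT libraries. The 5 leaf marker genes summed to between 126330 and 137580 normalized reads in *fer* and between 182210 and 185940 in WT, and all 5 were decreased, against 3 of 5 under quantile normalization and 1 of 5 without the trend. Of 6 root markers, 4 were in the table, and the root hair genes COBL9 and RHD6 were not. The 4 had sums of 25.2 to 41.4 normalized reads in *fer* and 11.1 to 22.3 in WT. Of them 1, the nitrate transporter gene NRT2.1, was increased. Of 7 floral markers 3 were in the table, with sums of 2.25 to 7.29 normalized reads in *fer* and 4.78 to 5.75 in WT, and 1 of them, AG, was decreased, at 0.034, 0.021 and 0 normalized reads in *fer* libraries and 3.40, 3.01 and 3.23 in WT libraries, a call that was lost when any 1 library was left out. The part of these differences in the results below was not tested. In whole leaves, more cells expressing a gene and more transcript per cell cannot be told apart.

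**Figure D1:**
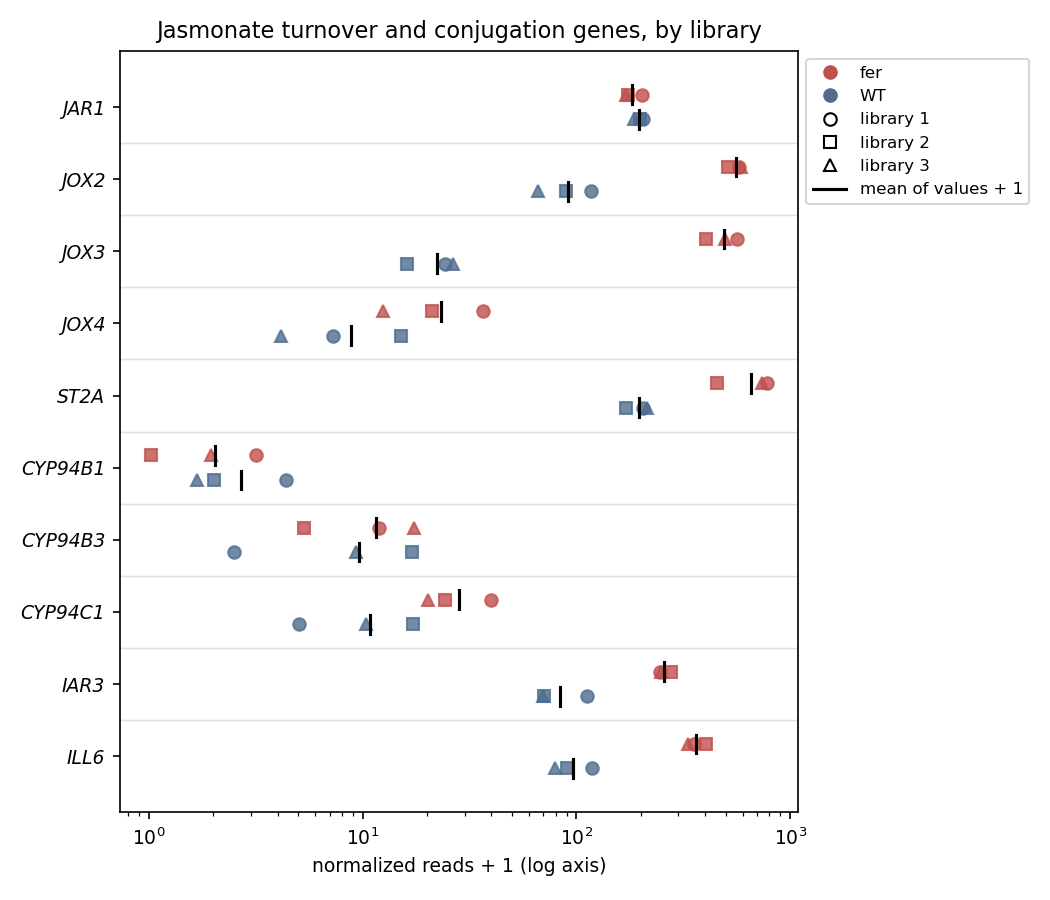
Normalized reads + 1 (log axis) of the 10 genes in each library, *fer* in red above WT in blue, with 1 symbol per library number and a black bar at the mean of each genotype. The red and blue symbols of JOX2, JOX3, ST2A, CYP94C1, IAR3 and ILL6 do not overlap, and JOX3 lies at 404.5 to 563.7 normalized reads in *fer* and 15.1 to 25.4 in WT.

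JAR1 (AT2G46370, chromosome 2, 19033586 to 19036683, plus strand), which makes JA-Ile, had 202.5, 172.3 and 169.2 normalized reads in *fer* libraries and 203.6, 197.2 and 184.7 in WT libraries. The values of the genotypes overlapped. On the log2 scale *fer* minus WT was -0.11, with a 95% interval of -0.36 to 0.14 (limma adjusted p 0.61). GH3.10 (AT4G03400), a relative of JAR1 in the GH3 family of acyl acid amido synthetases, was increased, at 366.8 ± 32.9 normalized reads in *fer* and 249.5 ± 2.74 in WT (mean ± SD, n = 3 each). It differed by 0.55 on the log2 scale (limma adjusted p 0.00098), and the adjusted p was 0.064 without the trend. Another annotated gene overlaps GH3.10, and whether the counting used strand is not given in the sources used here.

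The oxidase genes JOX3 and JOX2 had the largest log2 fold changes of the 10 genes. JOX3 (AT3G55970, also named JRG21, chromosome 3, 20766735 to 20769410, minus strand) had 563.7, 404.5 and 493.8 normalized reads in *fer* libraries and 23.4, 15.1 and 25.4 in WT libraries. The lowest *fer* library was far above the highest WT library. The mean was 22.9 times that of WT, the log2 fold change was 4.47 ± 0.18 (SE), and the adjusted p was 3.1e-12 in limma. This was rank 17 among the 20754 log2 fold changes ordered from the highest.

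JOX2 (AT5G05600, chromosome 5, 1672070 to 1674770, plus strand) had 572.9, 510.2 and 590.3 normalized reads in *fer* libraries and 116.3, 88.6 and 65.1 in WT libraries. All *fer* libraries were close to each other, and WT library 1 was the highest of WT. This gave a log2 fold change of 2.66 ± 0.16 (SE, limma adjusted p 4.1e-10).

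JOX4 (AT2G38240, chromosome 2, 16012535 to 16014991, minus strand) was low, at 35.5, 20.0 and 11.4 normalized reads in *fer* libraries and 6.26, 14.1 and 3.16 in WT libraries. *fer* library 3 lay below WT library 2, so the genotypes overlapped. The log2 fold change of 1.46 ± 0.48 (SE) passed narrowly (limma adjusted p 0.0497). JOX4 was called in 3 of 11 alternatives, whose adjusted p ranged from 0.026 to 0.255.

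JOX1 (AT3G11180), the remaining oxidase, was not among the 10 genes. It had 6.49, 8.36 and 11.6 normalized reads in *fer* libraries and 0.14, 0.0052 and 0 in WT libraries. WT was at the floor of 3 normalized reads used here, so the *fer* mean of 8.82 was at least 2.94-fold higher (limma adjusted p 0.00057).

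The 4 oxidase genes together made up 1178.5, 943.0 and 1107.1 normalized reads in *fer* libraries and 146.0, 117.8 and 93.6 in WT libraries, a ratio of means of 9.03. Their composition also differed. JOX3 held 45.1% ± 2.51 of the summed oxidase reads in *fer* and 18.6% ± 7.49 in WT, whereas JOX2 held 52.0% ± 2.97 in *fer* and 74.8% ± 5.07 in WT (mean ± SD, n = 3 each). In *fer*, JOX2 and JOX3 overlapped in level, and in WT JOX2 lay above JOX3 in every library. The log2 ratio of JOX3 to JOX2 within a library averaged -0.20 in *fer* and -2.02 in WT, with no overlap. The exact permutation test, two-sided, gave p = 0.1, the smallest value that 3 against 3 libraries allow (0.12 when adjusted over 6 ratios between neighbouring or related genes). These 6 ratios and the sums over families were chosen after the values were seen.

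**Figure D2:**
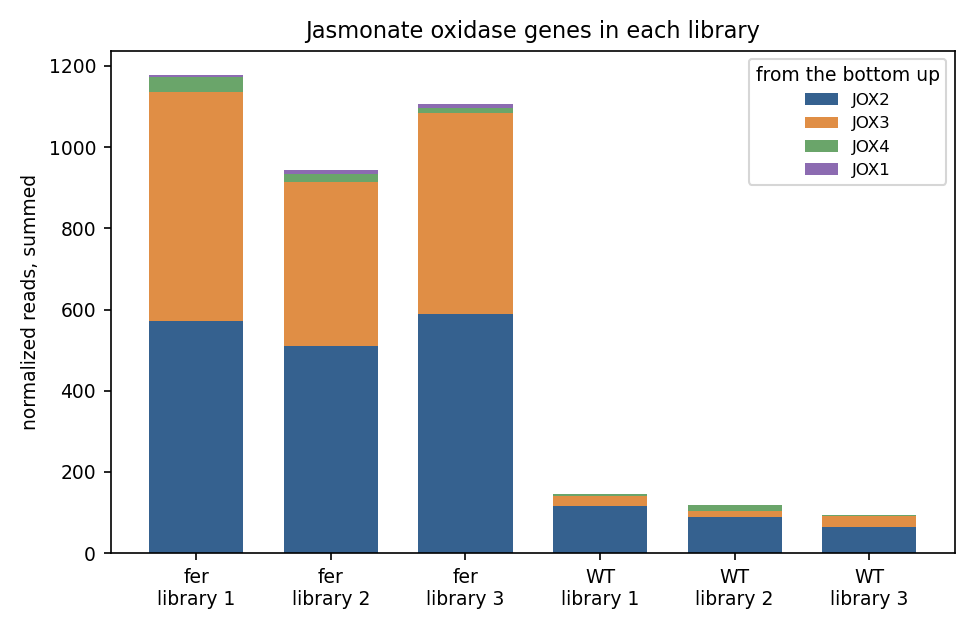
Normalized reads of JOX2, JOX3, JOX4 and JOX1, stacked from the bottom up, in each *fer* library (left) and each WT library (right), on an axis that starts at 0. The bars reach 1178.5, 943.0 and 1107.1 in *fer* and 146.0, 117.8 and 93.6 in WT, and the JOX3 segment takes 42.9% to 47.8% of a *fer* bar and 12.8% to 27.1% of a WT bar.

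The promoters of the oxidase genes with the lowest WT level relative to *fer*, JOX3 and JOX1, are shown because MYC transcription factors of the jasmonate pathway bind the G-box, CACGTG. A related form that they also bind is CACGTT, which is not its own complement and reads AACGTG when it lies on the opposite strand. The 250 bases before the annotated start were read from the TAIR10.1 genome of RefSeq, whose nuclear chromosomes carry the TAIR10 sequence, and are printed 5′ to 3′ on the strand of the gene, and matches to these motifs on either strand are in capitals. The window of JOX3 is chr3:20769411-20769660 on the minus strand and that of JOX1 is chr3:3503667-3503916 on the plus strand.
JOX3: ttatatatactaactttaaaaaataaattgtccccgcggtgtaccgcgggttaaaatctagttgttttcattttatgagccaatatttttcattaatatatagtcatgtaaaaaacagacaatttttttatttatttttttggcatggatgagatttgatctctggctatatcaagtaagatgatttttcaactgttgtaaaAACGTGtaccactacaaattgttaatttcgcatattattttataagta
JOX1: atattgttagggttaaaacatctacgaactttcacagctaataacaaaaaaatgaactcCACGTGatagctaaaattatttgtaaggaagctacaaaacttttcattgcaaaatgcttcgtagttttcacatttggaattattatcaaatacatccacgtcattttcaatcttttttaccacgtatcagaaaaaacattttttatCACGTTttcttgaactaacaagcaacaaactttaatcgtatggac
JOX3 was the 1 gene of the 10 with CACGTT in this window, starting 48 bases before the annotated start. CACGTG was found in 0 of the 10 windows, against 6.49% of the windows of 27444 protein-coding genes, and CACGTT in 7.54% of those. JOX1 held both, at 191 and 45 bases before the start. Within 1000 bases, CACGTG was found in IAR3 and CYP94B1 and CACGTT in JOX3, JOX4, CYP94B3 and IAR3, against 14.8% and 23.8% of all windows of that length. Such a match is a description of the letters and no sign of binding.

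ST2A (AT5G07010, chromosome 5, 2174668 to 2176446, minus strand), which acts on the product of the oxidases, had 778.6, 454.5 and 733.6 normalized reads in *fer* libraries and 204.5, 170.0 and 212.0 in WT libraries. *fer* library 2 was the lowest of *fer* but still above every WT library. The difference on the log2 scale was 1.71 ± 0.15 (SE, limma adjusted p 1.9e-07). Its neighbour ST2B (AT5G07000), which lies 1652 bases away and shares 87.6% of the coding sequence, had 25.9 ± 8.72 normalized reads in *fer* and 31.1 ± 10.3 in WT, a log2 fold change of -0.25 with a 95% interval of -0.92 to 0.43 (limma adjusted p 0.68). The log2 ratio of ST2A to ST2B within a library averaged 4.62 in *fer* and 2.67 in WT, with no overlap (exact permutation test, two-sided, p = 0.1, the smallest possible). The end of the coding alignment of the pair is shown, because reads of near copies could be confused there. Bases that differ are in capitals.
ST2A: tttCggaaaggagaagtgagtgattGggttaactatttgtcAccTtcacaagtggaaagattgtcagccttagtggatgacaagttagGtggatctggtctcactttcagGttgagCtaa
ST2B: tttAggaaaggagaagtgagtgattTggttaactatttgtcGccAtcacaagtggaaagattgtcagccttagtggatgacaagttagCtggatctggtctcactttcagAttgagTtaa
They differ at 7 of the last 120 positions. The longest run of bases that their transcripts share is 53. In the last 500 exon bases of either gene, 0 of the 50-base windows occur elsewhere in the genome, and the same held for the other members. Only exact matches were counted, so reads aligned with mismatches or lying outside those 500 bases were not covered.

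The CYP94 genes were low in both genotypes. CYP94C1 (AT2G27690, chromosome 2, 11809279 to 11811280, plus strand) had 38.9, 23.2 and 19.1 normalized reads in *fer* libraries and 4.02, 16.1 and 9.40 in WT libraries. The genotypes did not overlap, but *fer* library 3 and WT library 2 were close. The log2 fold change was 1.48 ± 0.43 (SE, limma adjusted p 0.024). CYP94C1 was called in 4 of 11 alternatives, whose adjusted p ranged from 0.015 to 0.155, and without WT library 1 the adjusted p was 0.12.

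CYP94B3 (AT3G48520, chromosome 3, 17974853 to 17976774, minus strand) had 10.9, 4.32 and 16.4 normalized reads in *fer* libraries and 1.51, 16.1 and 8.26 in WT libraries. The values of each genotype spread over the range of the other. Its log2 fold change was 0.49, with a 95% interval of -0.78 to 1.76 (limma adjusted p 0.66), and without WT library 1 it was -0.29. CYP94B1 (AT5G63450, chromosome 5, 25408821 to 25410725, minus strand) was near the floor, at 2.16, 0.017 and 0.95 normalized reads in *fer* libraries and 3.37, 1.01 and 0.68 in WT libraries. Neither gene was called. CYP94B2, the remaining gene of subfamily B, was not among the genes of the table, so its level was not analysed. The 3 CYP94 genes together summed to 51.9, 27.5 and 36.4 normalized reads in *fer* libraries and 8.90, 33.2 and 18.3 in WT libraries, which overlap. The oxidase sum was therefore larger than the CYP94 sum in every library.

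The amidohydrolases both increased. ILL6 (AT1G44350, chromosome 1, 16834210 to 16838562, minus strand) had 352.0, 404.4 and 332.9 normalized reads in *fer* libraries and 117.3, 89.6 and 78.2 in WT libraries. ILL6 thus differed by 1.94 ± 0.14 on the log2 scale (SE, limma adjusted p 1.1e-08). IAR3 (AT1G51760, chromosome 1, 19199351 to 19201707, plus strand) had 243.7, 275.5 and 246.9 normalized reads in *fer* libraries and 111.2, 69.4 and 68.4 in WT libraries. WT library 1 was the highest of WT in both genes, and no *fer* library came near it. The log2 fold change of IAR3 was 1.65 ± 0.16 (SE, limma adjusted p 6.6e-07).

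The other 5 genes of the amidohydrolase family were lower, and together they summed to 138.2 ± 16.7 normalized reads in *fer* and 80.0 ± 5.88 in WT. ILR1 (AT3G02875) was increased, at 50.1 ± 8.22 normalized reads in *fer* and 22.4 ± 4.10 in WT, a log2 fold change of 1.13 (limma adjusted p 0.0041). ILL2 (AT5G56660) was increased, at 38.1 ± 1.83 normalized reads in *fer* and 19.6 ± 0.62 in WT, a log2 fold change of 0.92 (limma adjusted p 0.019), but it was not called under quantile normalization (adjusted p 0.060) or without WT library 2 or any single *fer* library (adjusted p from 0.051 to 0.076). ILL2 overlaps 2 other annotated genes and its coding sequence is 90.7% identical to that of ILL1, which was not called, at an adjusted p of 0.33.

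ILL5 (AT1G51780) lies 2804 bases from IAR3 and its coding sequence is 86.8% identical. It had 3.33, 8.36 and 6.73 normalized reads in *fer* libraries and 3.60, 2.02 and 2.89 in WT libraries (limma adjusted p 0.32). WT levels lay around the floor of 3 normalized reads used here, and *fer* levels were also low. A ratio to ILL5 therefore rests on few normalized reads. The log2 ratio of IAR3 to ILL5 within a library was 5.82, 4.88 and 5.002 in *fer* libraries and 4.61, 4.55 and 4.16 in WT libraries, which do not overlap (exact permutation test, two-sided, p = 0.1, adjusted 0.12). The ends of the coding sequences of this pair are shown for the same reason, with bases that differ or have no partner in capitals.
IAR3: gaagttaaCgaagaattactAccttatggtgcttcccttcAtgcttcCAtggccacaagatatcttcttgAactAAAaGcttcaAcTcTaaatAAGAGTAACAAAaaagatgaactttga
ILL5: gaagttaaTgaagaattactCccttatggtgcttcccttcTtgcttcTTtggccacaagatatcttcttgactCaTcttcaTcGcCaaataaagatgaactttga
They differ at 25 of the last 120 alignment positions, among them a stretch that ILL5 lacks. The longest run that the transcripts share is 44 bases, shorter than a read of 50 bases.

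**Figure D3:**
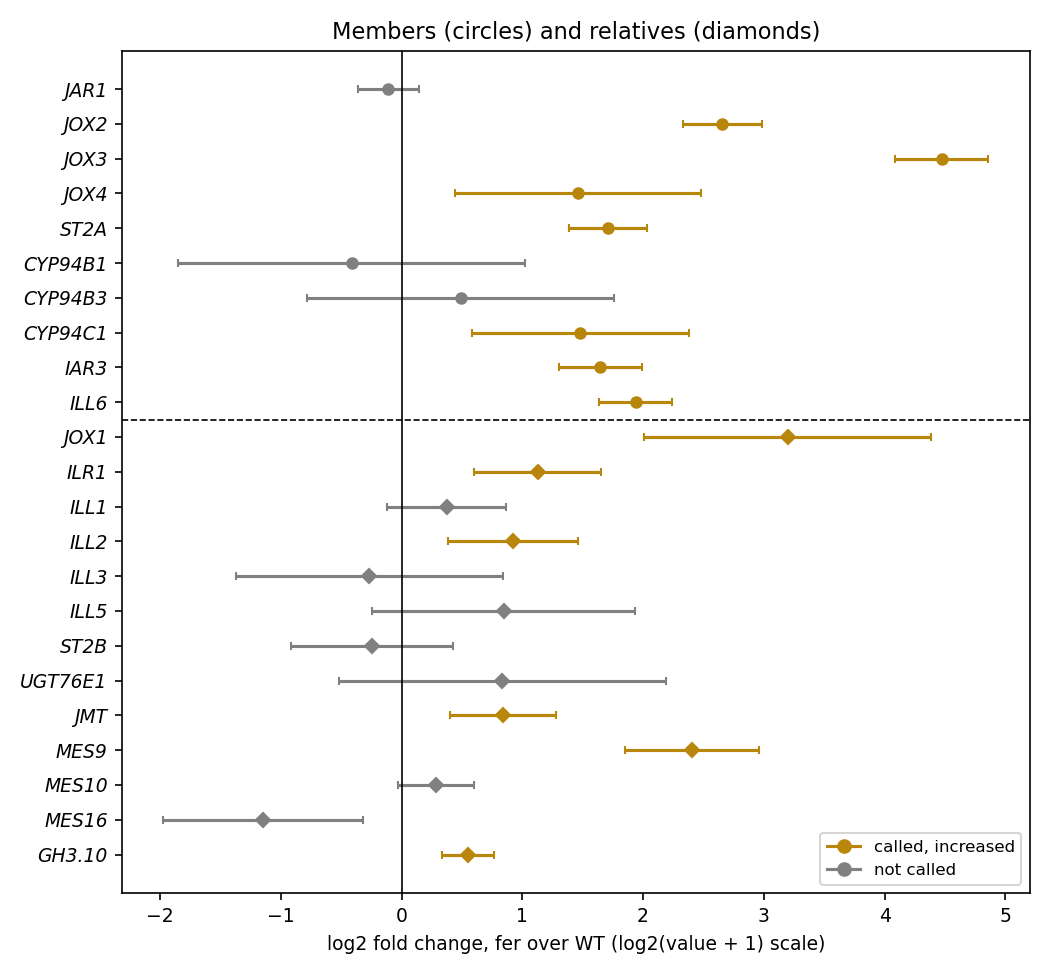
Log2 fold change of *fer* over WT on the log2(value + 1) scale, with the 95% interval in limma, for the 10 genes (circles, above the dashed line) and 13 related genes of the table (diamonds). Genes called as increased are in gold, and JOX3 at 4.47 and JOX2 at 2.66 stand furthest to the right among the 10.

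Around these genes, a list of 14 further genes of jasmonate turnover and conjugation was counted, of which 13 were in the table. Transcript levels of 6 of the 13 were increased and 0 decreased, against 10.0% increased and 4.52% decreased over all genes. The median log2 fold change of the 13 was 0.84. Beside JOX1, ILR1, ILL2 and GH3.10, the increased genes were JMT and MES9. JMT (AT1G19640), which makes the volatile methyl jasmonate, had 61.6 ± 8.94 normalized reads in *fer* and 33.7 ± 2.23 in WT, a log2 fold change of 0.84 (limma adjusted p 0.0095). MES9 (AT4G37150), an esterase able to hydrolyze methyl jasmonate and methyl salicylate, had 65.3, 72.6 and 71.0 normalized reads in *fer* libraries and 14.8, 14.1 and 8.93 in WT libraries, a log2 fold change of 2.41 (limma adjusted p 2.5e-06). MES16, another methyl esterase, had 6.88, 30.6 and 15.2 normalized reads in *fer* libraries and 27.1, 42.2 and 34.8 in WT libraries. Its adjusted p was 0.060 in limma, and it was the 1 related gene with a lower level in *fer* at an unadjusted p under 0.05. MES16 was called as decreased under median of ratios scaling (limma adjusted p 0.041), under quantile normalization (0.027) and without *fer* library 2 (0.0095).

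Of 14 synthesis genes, 12 were increased and 0 decreased (0 also at an unadjusted p under 0.05 in limma), with a median log2 fold change of 0.96, led by LOX2 at 2.31 and AOC1 at 2.23. Of 16 genes of JA-Ile perception in the table, 10 were increased, led by JAZ10 at 2.72 and JAZ5 at 1.95, and 1, MYC4, was decreased. Over all genes, 10.0% were increased and 4.52% decreased. Without the trend 5 genes of each of these 2 lists were increased, against 4.38% of all genes. WT library 1 was the highest WT library in 13 of the 14 synthesis genes, 11 of the 16 perception genes, 8 of the 13 related genes and 5 of the 10 genes described here, and it was the lowest in CYP94B3 and CYP94C1. Without it, JOX2, JOX3, ST2A, IAR3 and ILL6 were called, with log2 fold changes of 2.86, 4.55, 1.74, 1.87 and 2.099.

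The order of levels differed between the genotypes. In *fer* the means ran from ST2A (655.6 normalized reads) through JOX2, JOX3, ILL6 and IAR3 to JAR1 (181.3), and the libraries of ST2A, JOX2 and JOX3 overlapped in turn. In WT, ST2A (195.5) and JAR1 (195.1) overlapped and stood above ILL6, JOX2 and IAR3, which overlapped in turn, and JOX3 followed at 21.3. Below these came CYP94C1, JOX4 and CYP94B3 in *fer* and CYP94C1, CYP94B3 and JOX4 in WT, with CYP94B1 last in both. In WT, CYP94C1, CYP94B3, JOX4 and CYP94B1 each overlapped the gene above it. In *fer*, JOX4 overlapped CYP94C1, and CYP94B3 overlapped JOX4. The order of JOX4 and CYP94B3 was thus not resolved in either genotype.

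In a ratio to JAR1 within a library, a factor common to all genes of that library drops out, apart from the 1 added to each value. An adjustment that differs between genes does not drop out. The deposited values may hold such an adjustment, because WT library 2 has 0.0052 normalized reads for JOX1 and 1.0072 for CYP94B1. The log2 ratio of IAR3 to JAR1 was 0.27, 0.67 and 0.54 in *fer* libraries and -0.87, -1.49 and -1.42 in WT libraries. JOX2, JOX3, ILL6 and IAR3 were thus above JAR1 in every *fer* library and below it in every WT library. The difference between genotypes (*fer* minus WT) in the log2 ratio was 4.58 for JOX3, 2.76 for JOX2, 2.05 for ILL6, 1.82 for ST2A, 1.75 for IAR3 and 1.59 for CYP94C1. In each of these 6 ratios all *fer* libraries lay above all WT libraries, with p = 0.1 in the exact permutation test, two-sided, the smallest value possible (0.15 when adjusted over the 9 ratios). By level alone, 20.8% of all genes were separated in this way, and the share for ratios of all genes to JAR1 was not computed. For JOX4 the difference was 1.57 and the genotypes overlapped, with p = 0.2 (0.257 adjusted) in the exact permutation test. For CYP94B3 and CYP94B1 it was 0.60 and -0.30, with p = 0.6 for each in the same exact permutation test.

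**Figure D4:**
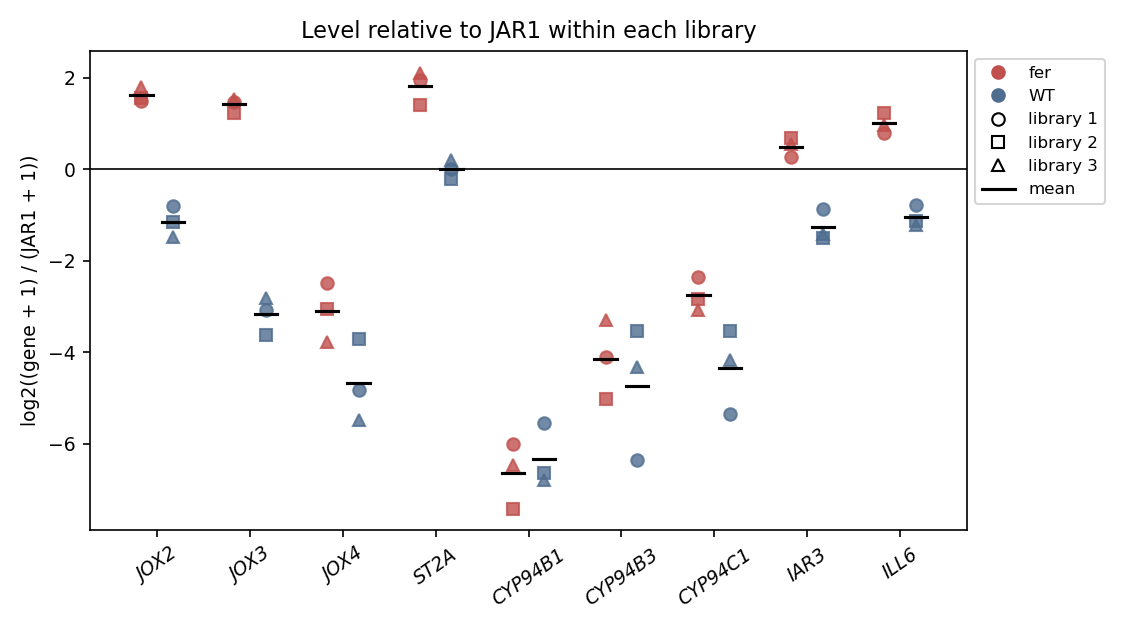
Log2 ratio of each gene to JAR1 within a library (1 added to both values), *fer* in red to the left of WT in blue, with 1 symbol per library number and a black bar at the mean. JOX2, JOX3, IAR3 and ILL6 lie above 0 in all *fer* libraries and below 0 in all WT libraries.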

How the data were processed

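RNA from rosette leaves was prepared with the QuantSeq 3′ kit and libraries were read over 50 bases from 1 end, in 2 sequencing runs each. According to the study and the submitters' processing notes, merged reads were aligned to TAIR10 with STAR and counted per gene with HTSeq. The deposited signal values are reads per gene that the authors normalized with edgeR's TMM method and brought to a common library size. Values are not whole and the original depth could not be recovered, so no test for counts and no counting interval was used. A deposited column holds the authors' log2 fold change and was not used.

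The limma fits, the correlations and the log2 ratios of single genes used log2(value + 1), which understates changes of low genes. Ratios of means, sums and shares over families, the order of levels and the bound for JOX1 used the values without the log. The 3 *fer* libraries were set against the 3 WT libraries in limma 3.58.1 (R 4.3.3) with a trend of variance on mean and no covariate, and two-sided p-values were adjusted by Benjamini and Hochberg's method over the 20754 genes. The limma calculation was tested on simulated whole counts, unlike the deposited values, with changes placed only in genes well above the floor. The simulation thus did not cover changes in low genes such as JOX4, CYP94C1, CYP94B3, CYP94B1 and JOX1. A genotype with at most 3 normalized reads in every library was treated as being at the floor. Single ratios were compared by exact permutation of the 6 libraries. The root, leaf and floral markers, relatives, synthesis and perception lists, and the 10 genes, were chosen with earlier results of these data known. Named genes are all 10 genes, FER, every called relative, and the 2 called genes with the largest change from each of the synthesis and perception lists. MYC4, ST2B, ILL1, ILL5, MES16 and the markers NRT2.1 and AG were named after their values were seen. Alternatives were leaving out each library, limma without the trend, quantile normalization, scaling by median of ratios, a filter on means under 5, a pseudocount of 0.1 and an adjusted p under 0.01. Sequences came from RefSeq (TAIR10.1) and coding alignments from Biopython 1.88.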

Additional observations from a re-analysis of the deposited data

How the results depend on the processing

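No paired analysis was possible because column names give the genotype alone, so the fit with a replicate block was not run. JOX2, JOX3, ST2A, IAR3 and ILL6 kept their direction and call in all 11 alternatives, with log2 fold changes of 2.44 to 2.86, 4.26 to 4.61, 1.56 to 1.95, 1.52 to 1.87 and 1.81 to 2.099, and JAR1 was called in 0 of them (-0.21 to -0.062). The number of increased genes among the 10 ranged from 5 to 7, the median log2 fold change from 1.38 to 1.75, and FER had log2 fold changes from -5.23 to -4.88. Over all genes, the increased share ranged from 4.38% without the trend to 11.7% with the filter on means. With 1 library left out, that share was 6.2% to 8.78%. The calls of CYP94C1 and JOX4 depended on single libraries and on the scaling. JMT had an adjusted p of 0.054 without *fer* library 2. Leaving out 1 library in turn, the log2 fold change of CYP94B1 ranged from -0.80 to 0.016 and reversed without WT library 1 (0.0043) or *fer* library 2 (0.016), and that of CYP94B3 ranged from -0.29 to 1.098 and reversed without WT library 1 (-0.29). Their log2 ratios to JAR1 reversed likewise, to 0.082, 0.091 and -0.21, within ranges of -0.61 to 0.091 for CYP94B1 and -0.21 to 1.20 for CYP94B3. Without the trend, the increased genes were 5 in the synthesis list and 5 in the perception list, with 0 decreased, and 4.38% of all genes were increased. Leaving out 1 library gave 0 to 1 decreased perception genes, 0 without WT library 3 or *fer* library 3. The cause was not tested. Median of ratios scaling shifted the median over all genes, 0.10 as deposited, to 0.0031 and quantile normalization to -0.043, and no called gene among the 10 changed sign under either. The original depth could not be recovered, so what it limits was not tested.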
